A study of Equus caballus with 10 samples.

Results

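Olfactory receptor genes were taken from sperm arrays of the horse (Equus caballus) by their symbols in the platform annotation: OR, a family number, subfamily letters and a member number. The rule found 668 genes on 669 probe sets, out of 16661 genes with a probe set that names a single gene. OR6C7 was the gene with 2 such probe sets, at mean log2 signals of 5.03 and 4.17, and the higher was used. A further 49 probe sets carry several symbols with a receptor symbol among them and were left out of every count here. OR1D2, OR7A5 and OR4D1, receptors reported on human sperm, are not analysed here.

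Olfactory receptors form the largest gene family of most mammals. Each is a G protein-coupled receptor, made from a single coding exon, and a neuron of the nasal epithelium uses a single receptor gene. An odorant that binds the receptor activates the G protein subunit encoded by GNAL and the adenylyl cyclase encoded by ADCY3. The cAMP made then opens a channel of CNGA2, CNGA4 and CNGB1. Some receptors are also transcribed in the testis of several mammals, where roles in sperm chemotaxis and motility have been proposed. Families 51 to 56 make up class I, and families 1 to 14 class II. A symbol that ends in P was read as that of a pseudogene. Other symbols here end in other letters, and whether each P marks a pseudogene was not checked. The genes arose by repeated duplication, so that a probe set may bind transcripts of a close relative. That cross-binding was not tested.

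The 10 arrays each held ejaculated spermatozoa of a different warmblood stallion of breeding age at an insemination centre. The labels name no treatment. They divide the animals by season and by fertility class, into autumn and high fertility (stallions 1 and 2), spring and high fertility (3, 4 and 9), autumn and low fertility (5 and 6), and spring and low fertility (7, 8 and 10). The labels do not say how fertility was scored, and the protocol text puts all sampling in the breeding season. The title of stallion 9 starts as the autumn titles do, while its season field reads spring, which was used.

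Values are the deposited log2 signals per probe set, where 1 unit is a doubling and no value is below 4. A value of 4 is therefore a bound, and differences between genes near it are understated. Array medians over all 30559 probe sets ran from 5.07 to 5.49. The arrays of stallions 2, 9 and 10 stood apart, with medians of 5.07 to 5.10 and 2764 to 2920 probe sets at the floor, against 842 to 2129 on the other 7. All 11 sperm and late spermatid genes checked, PRM1 and ODF1 among them, were above the median of every array. Their average was 9.53 to 10.07 for stallions 2, 9 and 10, and 10.91 to 11.84 for the other 7. Of the olfactory neuron list 10 of 12 genes were measured, with array means of 4.99 to 5.66, and 2 of the 10 were above the median of every array. These were GAP43 and NCAM1, at 5.72 ± 0.21 and 5.69 ± 0.29 (SD, n = 10). The neuronal hydrolase gene UCHL1 averaged 6.36 ± 0.80, and CNGA2, ADCY3 and STOML3 were above no array median. Of the leukocyte list 10 of 11 genes were measured, with array means of 5.11 to 5.74. PTPRC, which encodes the leukocyte surface protein CD45, averaged 6.40 ± 0.48, above the median of every array, and CD3E of T cells 4.24 ± 0.27. Of the list for epithelium and accessory glands 5 of 10 were measured, with array means of 4.88 to 7.13, the highest on stallion 3. Less RNA per cell and fewer cells of a type cannot be told apart in such samples.

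Receptor genes gave lower signals than other genes, and many were close to the floor. The mean over the 10 arrays was under 4.5 for 256 of 668 genes (38.3%), against 5.78% of the 15993 other named genes. It was under 5 for 512 genes (76.6%). The median of the gene means was 4.63, with quartiles of 4.38 and 4.97, while the other named genes had a median of 5.50. A value of exactly 4 occurred on at least 1 array for 325 receptor genes (48.7%) and 7.77% of the others. It occurred on 5 or more arrays for 35 receptor genes. On no array did 371 receptor genes (55.5%) exceed that array's median, against 17% of the others. Signals of different probe sets do not rank transcripts, because each binds its target with its own strength, so these shares describe positions on the arrays and not amounts of RNA.

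**Figure D1:**
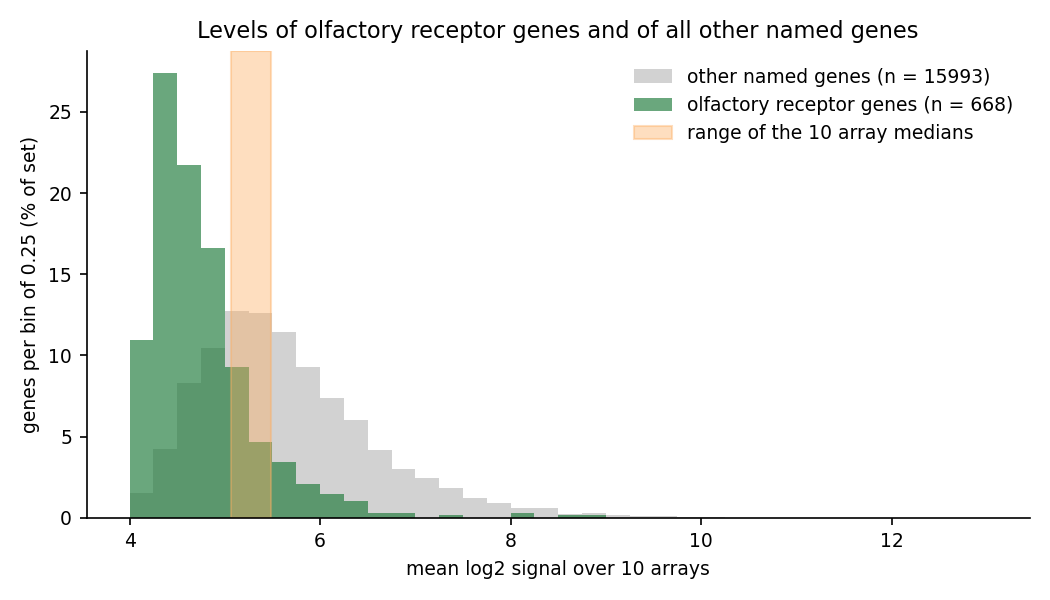
Mean log2 signal over 10 arrays (x axis) of 668 olfactory receptor genes (green) and 15993 other named genes (grey), as a percentage of each set per bin of 0.25 (y axis), with the range of the 10 array medians as a band. The receptor genes pile up below the band, 38.3% of them under 4.5, and thin out above it to a highest mean of 8.85.

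The 5 receptor genes with the lowest means were OR2F1FP, OR7D4F, OR4F14K, OR51V27 and OR10D4D. OR2F1FP, a pseudogene by its symbol, was at 4 on all 10 arrays. OR7D4F, which shares its subfamily with the human androstenone receptor OR7D4, was at 4 on 8 arrays, at 4.06 on that of stallion 3 and at 4.36 on that of stallion 5. OR4F14K reached 4.35, OR51V27 4.32 and OR10D4D 4.36 on their highest arrays. Transcripts of these genes were not detectable above the floor in most animals.

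Above the median of their own array on all 10 arrays stood 31 receptor genes (4.64%), against 34.9% of the other named genes. At least 1 log2 unit above it on every array were 7 receptor genes (1.05%), against 8.92% of the others. The 7 were OR51G4, OR4S17, OR2AG23, OR8A1, OR51V26, OR8B88 and OR6AE1.

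OR51G4, a class I receptor gene, read 7.32 and 8.55 in autumn and 8.56, 8.62 and 8.91 in spring for the animals of high fertility. For those of low fertility it read 10.53 and 8.27 in autumn and 8.82, 10.04 and 8.83 in spring. Its mean was 8.85 ± 0.89 (SD, n = 10). The seasons met without overlapping in high fertility, at 8.55 and 8.56, and overlapped in low fertility. OR4S17 of class II was steadier. Its values were 8.04 and 8.16 in autumn and 8.64, 8.55 and 8.28 in spring for high-fertility stallions, and 8.12 and 8.01 in autumn and 8.79, 8.44 and 7.34 in spring for low-fertility stallions. The lowest of these came from stallion 10, and the mean was 8.24 ± 0.41. It stood at least 2.26 above the median of each array, the widest margin of any receptor gene.

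OR10AL44 had a mean of 8.62 but the largest SD of all 668 genes, 1.34. It read 9.57 and 7.18 in autumn and 8.95, 9.02 and 8.43 in spring for high-fertility stallions, and 10.02 and 8.56 in autumn and 9.13, 9.78 and 5.58 in spring for low-fertility stallions. The values of stallions 2, 9 and 10 (7.18, 8.43 and 5.58) were below those of the other 7 (8.56 to 10.02), and these 3 arrays are the ones with the lowest medians and the lowest sperm marker signals. The part of either in this difference was not tested. OR2AG23 was high in 3 animals, stallions 1, 5 and 8, at 9.37, 9.73 and 9.24. It stood between 7.08 and 7.79 in the other 7. Those 3 animals belong to 3 different groups and their arrays had the highest medians.

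OR8A1 ran from 6.46 in stallion 4 to 8.01 in stallion 8, with a mean of 7.34 ± 0.51. OR51V26 read 8.80 in stallion 4 and 6.40 to 7.0 in the other 9. A single animal thus carried most of its spread. OR8B88 averaged 6.92 ± 0.35 and OR6AE1 6.58 ± 0.30, with stallion 9 lowest for both, at 6.08 and 6.22. Next came OR10K2 at 6.49 ± 0.44, OR52M1 at 6.45 ± 0.47, OR2T68 at 6.40 ± 0.40, OR6C4E at 6.37 ± 0.34, OR10AD1 at 6.35 ± 0.22, OR56B1 at 6.27 ± 0.53 and OR2T73P at 6.25 ± 0.29. OR2T73P is a pseudogene by its symbol, as is OR2A5P, also among the 31.

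**Figure D2:**
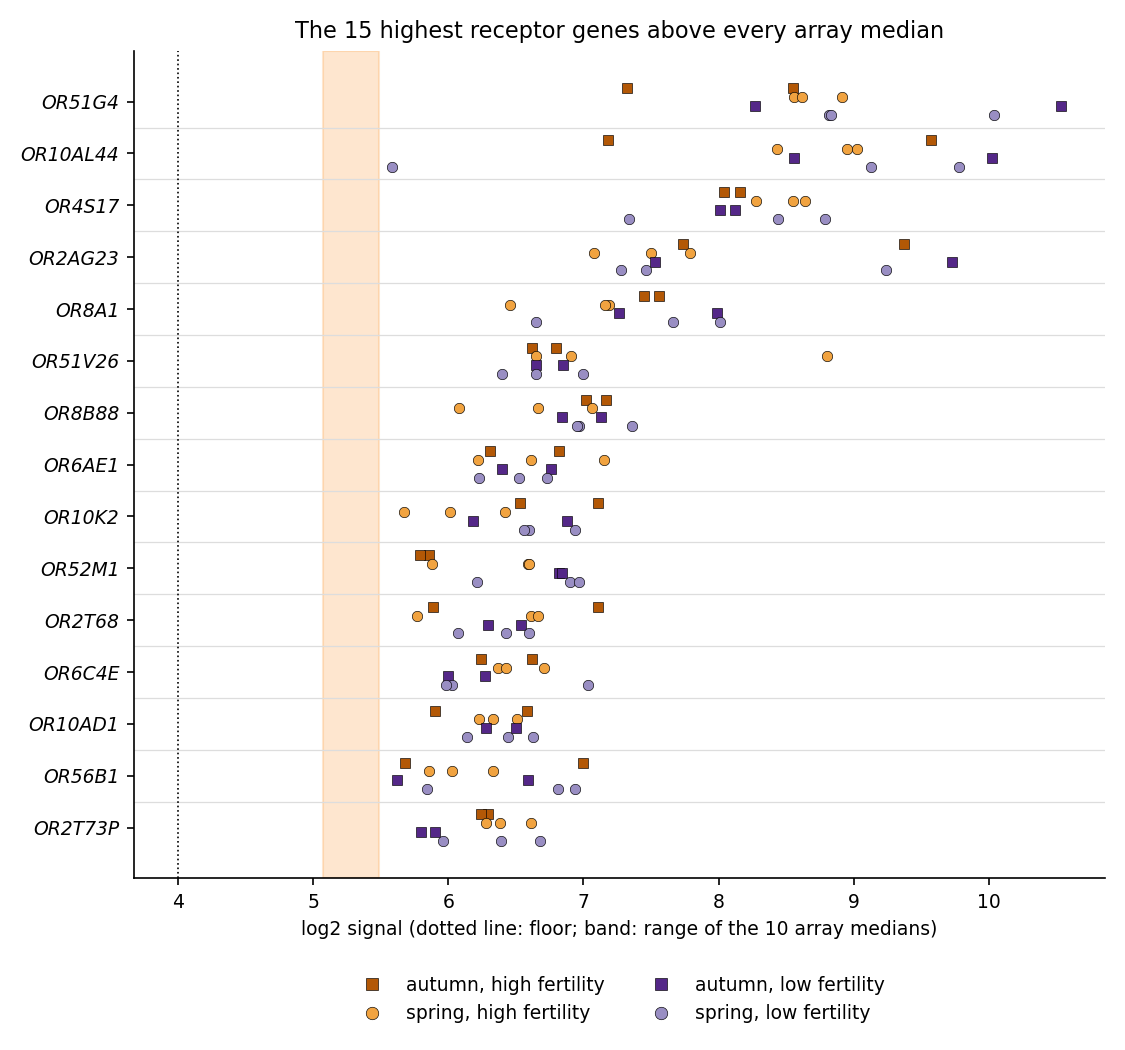
Log2 signal on each of 10 arrays (x axis) for the 15 receptor genes of highest mean among those above every array median (y axis), with squares for autumn, circles for spring and a colour for each group. The band spans the array medians and the dotted line is the floor of 4. OR4S17 stays between 7.34 and 8.79, while OR10AL44 spreads from 5.58 to 10.02 and OR51V26 has a single high value of 8.80.

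The remaining 16 of the 31 had means between 5.67 (OR2N1Q) and 6.24 (OR52I13). OR13C2 varied least among the 31, with an SD of 0.21 around 5.78. Of the 31 genes 6 had all 3 values of stallions 2, 9 and 10 below all 7 others: OR10AL44, OR6AE1, OR2T68, OR10AD1, OR2A5P and OR2N1Q. Over all 668 genes 73 did so (10.9%), against 15.1% of the other named genes. Without those 3 arrays, 199 genes had means under 4.5 and 40 were above every remaining array median.

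Among families of at least 20 genes the median signal ran from 4.47 in family 7 to 4.77 in family 11. Class I, with 96 genes, had a median of 4.63 and class II, with 572, a median of 4.64. The 57 genes with a pseudogene symbol had a median of 4.67 and the 611 others 4.63. Means under 4.5 were found for 41 class I (42.7%) and 215 class II genes (37.6%). Of the 31 genes above every array median 6 were class I (6.25% of the class) and 25 class II (4.37%). By family, 9 were of family 2 (of 90 genes), 5 of family 10 (of 60) and 3 each of family 8 (of 48) and family 52 (of 46). Family 1 with 45 genes and family 11 with 27 had none. Among families of at least 20 genes, the share under 4.5 was highest in family 8, 25 of 48 (52.1%), close to families 7 and 6 (51.6% and 51.4%), and lowest in family 11, 4 of 27 (14.8%). No test was made, since members of a family share sequence and are not independent.

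A few members have been studied outside the nose in other species. OR10J5, whose mouse counterpart has been described in sperm, averaged 4.76 ± 0.31 (SD, n = 10). It ran from 4.32 in stallion 5 to 5.27 in stallion 1 and was below the array median on all 10 arrays. OR51E1 and OR51E2, class I receptors known from the human prostate, averaged 4.74 ± 0.38 and 4.67 ± 0.31. OR51E1 was below the array median on all 10 arrays, and OR51E2 on 9, the exception being stallion 9 at 5.41. All 3 genes were therefore low on these arrays, although none was at the floor on any.

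Counts by group followed the same pattern. Group means under 4.5 were found for 285 receptor genes in autumn with high fertility, 300 in spring with high fertility, 178 in autumn with low fertility and 267 in spring with low fertility. Above the array median on every array of the group were 56, 52, 64 and 62 genes in the same order, or 8.38%, 7.78%, 9.58% and 9.28%. The requirement is easier to meet on 2 arrays than on 3. The other named genes did so at 50.0%, 46.4%, 53.2% and 44.9%. At least 1 group had 91 such receptor genes. In all 4 groups there were 31, in 3 groups 16, in 2 groups 18 and in a single group 26. Of the last, 11 were in autumn with low fertility, 7 in autumn with high fertility and 4 in each spring group. The same split was not counted for the other named genes. Autumn groups hold 2 arrays and spring groups 3, so these counts do not compare the groups. Without stallions 2, 9 and 10 the autumn high-fertility group is stallion 1 alone, and its count above the array median was then 111.

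The low count of 178 was that of the group of stallions 5 and 6. Each other group includes the array of stallion 2, 9 or 10, with 391, 374 and 384 receptor genes under 4.5. Without stallion 2 the autumn high-fertility count, from stallion 1 alone, was 212. The part of these arrays and of stallion 5 in the contrast between groups was not tested. On the array of stallion 5, 115 receptor genes were under 4.5 and 7 at the floor. On that of stallion 6, of the same group, 342 were under 4.5 and 98 at the floor, and the other 8 arrays had 212 to 391 and 20 to 160. The receptor genes had a median of 5.08 on stallion 5 and 4.36 to 4.76 on the other 9. Their median was 0.41 below the array's own median on stallion 5 and 0.53 to 0.76 below it on the others. Stallion 5 also had the highest array median, 5.49.

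Gene by gene, the value in stallion 5 exceeded the median of the other 9 animals for 577 of 668 receptor genes (86.4%), by a median of 0.43. The other named genes did so for 71.5%, by a median of 0.18, and those 3930 of them with means under 5 for 76.8%, by 0.21. On every other array the same median for the receptor genes lay between -0.19 and 0.14. On that of stallion 6 it was -0.14, with 28.1% of the receptor genes higher. The other named genes had 0.0 and 48.6% there, and those with means under 5 had -0.05 and 41.8%. The rise in stallion 5 was found in class I (median 0.41, 82 of 96 genes higher) and class II (0.43, 495 of 572), and in each of the 18 families. Among families of at least 20 genes the median ran from 0.30 in family 2 to 0.56 in family 5. In the smaller families it ran from 0.14 in family 14 (1 gene) and 0.19 in family 3 (7 genes) to 0.805 in family 55 (2 genes). The rises in families 14 and 3 were close to that of the other named genes. A rise of at least 1 log2 unit occurred for 85 receptor genes (12.7%), against 2.26% of the other named genes. The leukocyte list averaged 5.74 on this array and 5.11 to 5.43 on the other 9. Its gene S100A9, of a neutrophil calcium-binding protein, read 8.24 in stallion 5, 8.19 in stallion 6 and 4.78 to 6.63 in the others. Without S100A9, left out after its values were seen, the list averaged 5.46 in stallion 5 and 4.86 to 5.51 elsewhere, the highest in stallion 4. The olfactory neuron list averaged 5.51, within its range of 4.99 to 5.66 on the others. The part of leukocyte RNA or of the array's overall signal in this rise was not tested.

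**Figure D3:**
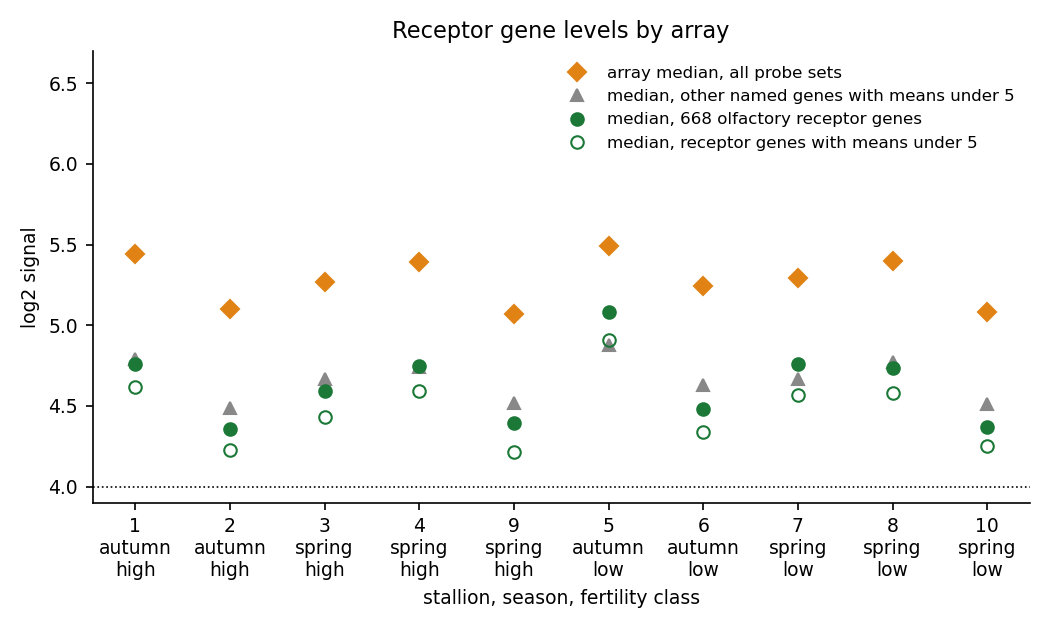
Median log2 signal (y axis) on the array of each stallion (x axis, with season and fertility class) over all probe sets (diamonds), over all 668 receptor genes (filled circles), and over receptor genes (open circles) and other named genes (triangles) with means under 5. On stallion 5 the receptor median is 5.08, and the open circle reaches the triangle, at 4.91 and 4.88. On the other 9 arrays the open circle is below it.

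Some receptor genes were high in a single animal. In 24 genes (3.59%) the highest value exceeded the next by at least 1 log2 unit, against 1.1% of the other named genes. Of these 24, 15 had the high value in stallion 5, 3 each in stallions 4 and 7, and 1 each in stallions 3, 6 and 10. Of the 176 such cases among the other named genes, 43 were in stallion 5 and 42 in stallion 8.

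OR51F4 of class I had the widest gap. It read 8.53 in stallion 7 and 4.24 to 4.97 in the other 9, including 4.55 and 4.52 in the other spring low-fertility animals, stallions 8 and 10. OR3A2D read 7.62 in stallion 5 and 4.08 to 4.58 elsewhere. OR4A47I read 8.29 in stallion 5 and 4.06 to 5.34 elsewhere. Stallion 6, in the same group as stallion 5, had 4.32 and 4.93 for these genes, so neither rise was shared within the group.

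OR7H9 showed the same form, with 7.42 in stallion 5 and 4.00 to 4.61 in the others, as did OR5P97 with 6.78 against 4.03 to 4.66. OR13C3 was high in stallion 3 instead, at 6.99 against 4.00 to 5.32. The genes OR7H9, OR5P97 and OR13C3 were named after their values were seen. OR4C16 completed the 5 genes of largest SD (1.09) in another way, with values spread from 4.14 to 6.96. It was low in stallions 2, 9 and 10, at 4.14, 4.30 and 4.29, and at 4.90 or above in the rest.

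**Figure D4:**
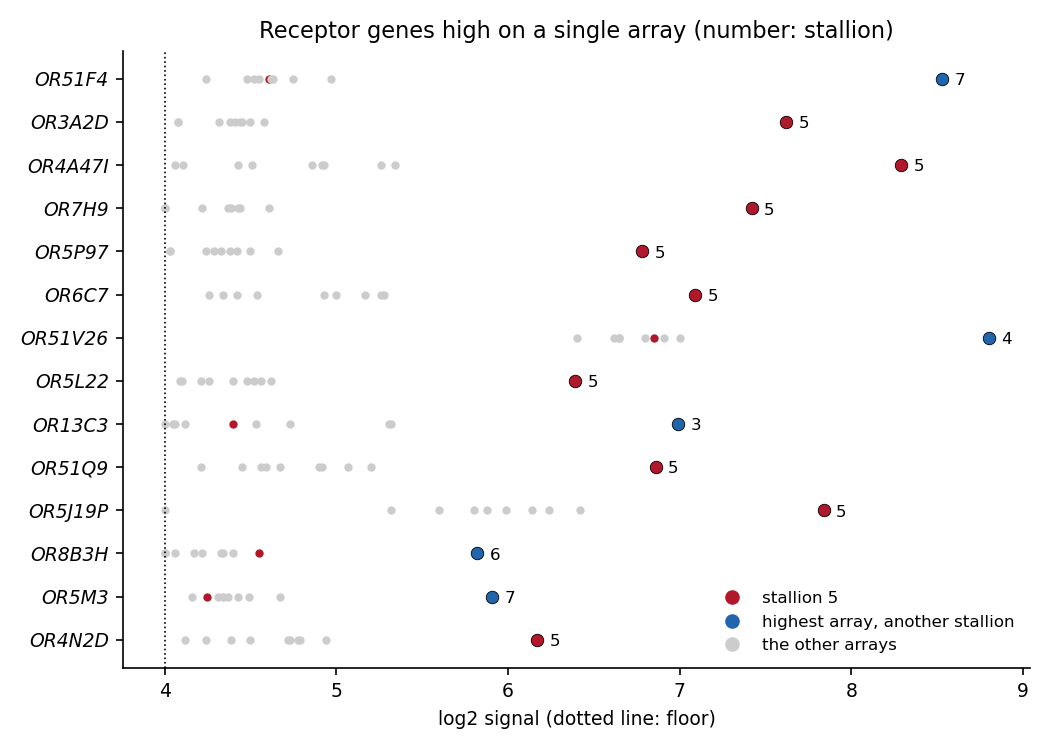
Log2 signal in each stallion (x axis) for the 14 receptor genes whose highest array exceeds the next by at least 1.2 units (y axis), with the stallion of the highest value printed beside it and stallion 5 in red. The high value is that of stallion 5 in 9 of the 14 genes, and OR51F4 stands at 8.53 in stallion 7.

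For season, spring was set against autumn with both fertility classes weighted equally, in a linear model over all 30559 probe sets with limma. Its p-values set each difference against the spread between stallions within groups. Each stallion has 1 array, so that spread also holds differences between arrays. No receptor gene passed a Benjamini-Hochberg adjusted p of 0.05 (0 of 668, all adjusted p = 1), where 0.00327% of all probe sets did. At an unadjusted p under 0.05 there were 6 genes higher in spring (0.898%), against 1.01% of all probe sets, and 16 lower (2.40%), against 3.17%. These shares were no larger than those of the array as a whole. The median difference of the receptor genes was -0.06, and that of all probe sets -0.05. Without stallion 5 the receptor median turned to 0.08, with 64.1% of the genes higher in spring where the full set had 37.9%. Over all probe sets the median was then 0.007, with 51.4% higher in spring where the full set had 41.4%.

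For season the 4 receptor genes of smallest unadjusted p in each direction were these, and none passed. OR52R1 of class I read 4.70, 4.73, 4.74 and 4.65 in the autumn animals and 4.02 to 4.30 in the 6 spring animals. The seasons did not overlap, but the spring values were close to the floor. The difference was -0.53 (SE 0.13). OR4F84 was likewise between 4.44 and 5.01 in autumn and between 4.00 and 4.31 in spring, a difference of -0.53 (SE 0.13). OR1J1B and OR1S1 differed by -0.48 (SE 0.15) and -0.66 (SE 0.21), with spring values of 4.00 to 4.07 and 4.00 to 4.24. Their autumn values were 4.00 to 5.01 and 4.12 to 5.18, so the seasons touched or overlapped. Without stallion 5 the difference of OR1S1 was -0.39. Groups without overlap were seen for 4 receptor genes lower in spring (0.599%), against 0.573% of all probe sets, and for 0 higher, against 0.19%.

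With the higher mean in spring were OR4K66, OR8A1J, OR2AD1C and OR9Q2. OR4K66 read 5.50 and 6.61 in autumn and 6.55, 6.86 and 7.05 in spring for high-fertility stallions, and 5.33 and 5.68 in autumn and 7.15, 6.05 and 8.29 in spring for low-fertility stallions. Stallion 10 had the highest value, and the seasons overlapped. The difference was 1.21 (SE 0.41). OR8A1J differed by 0.77 (SE 0.24), with 4.5 to 5.66 in autumn and 5.55 to 6.30 in spring. It was 0.48 without stallion 2, 0.37 without stallions 2, 9 and 10, and 0.49 with stallion 9 placed in autumn. OR2AD1C differed by 0.72 (SE 0.25), or 0.43 with stallion 9 in autumn, and OR9Q2 by 0.45 (SE 0.15). The seasons overlapped for all 4 genes.

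For fertility class, low was set against high with both seasons weighted equally, in the same model. Again 0 of 668 receptor genes passed (all adjusted p = 1), against 0.00327% of all probe sets. At an unadjusted p under 0.05, 15 were higher in low fertility (2.25%, against 1.82% of all probe sets) and 2 lower (0.299%, against 0.769%). The low-fertility mean was the higher for 485 genes (72.6%), and for 60.5% of all probe sets. With array medians made equal the receptor share was 60.9%, and with quantile normalization 63.5%. The median difference was 0.12 for receptor genes and 0.05 for all probe sets. Without stallion 5 the receptor median was -0.04 and the share with the higher low-fertility mean 44.0%, so the direction turned. Over all probe sets the share also fell without stallion 5, to 50.1%, with a median of 0.0. That fit leaves stallion 6 as the only autumn low-fertility array. On it 28.1% of the receptor genes were above the median of the other animals. Without stallion 2 the receptor median was 0.039 and the share 56.7%. Without stallions 2, 9 and 10 they were 0.045 and 58.4%. The part of any single animal in the direction was not tested. Of the sperm marker genes 10 of 11 also had the higher low-fertility mean (median 0.15).

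OR5J19P, a pseudogene by its symbol, had the smallest p for fertility class. It read 5.32 and 4.00 in autumn and 5.60, 6.24 and 5.88 in spring for high-fertility stallions, and 7.84 and 6.14 in autumn and 5.99, 5.80 and 6.42 in spring for low-fertility stallions. Its difference of 1.25 (SE 0.37) was made of 2.33 in autumn and 0.16 in spring. The highest value was that of stallion 5, without which the difference was 0.82. It was 0.92 without stallion 2, whose value was at the floor, and 0.82 without stallions 2, 9 and 10. Leaving out single stallions gave 0.82 to 1.67. OR7E239P, likewise named as a pseudogene, was at 4.00 to 4.07 in the 5 high-fertility animals. In low fertility it stood at 4.76, 4.79, 4.98 and 4.49 in stallions 5 to 8 and at 4.00 in stallion 10, so the classes overlapped at the floor only.

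OR52M1, among the 31 genes above every median, read 5.86 and 5.79 in autumn and 5.88, 6.59 and 6.60 in spring for high-fertility stallions, and 6.82 and 6.84 in autumn and 6.21, 6.90 and 6.97 in spring for low-fertility stallions. Its difference was 0.67 (SE 0.21). Stallion 7, at 6.21, was the low-fertility animal within the high-fertility range. OR10Q2 differed by 0.83 (SE 0.27), with 4.15 to 4.96 in high and 4.93 to 6.46 in low fertility. The highest of these was again stallion 5, without which the difference was 0.51.

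In the other direction, OR5C1 did not overlap between the classes. It read 6.52, 6.56, 6.49, 6.26 and 6.13 in high fertility and 6.09, 5.84, 6.11, 6.12 and 5.94 in low fertility. The difference was -0.41 (SE 0.14) and did not pass, although the gene was above every array median. OR9Q2 differed by -0.48 (SE 0.15), with 4.93 to 5.92 in high and 4.62 to 5.11 in low fertility. It was the gene with a small p for season as well. OR7R4 differed by -0.54 (SE 0.24), or -0.34 without stallion 4. OR2W4 differed by -0.49 (SE 0.23), or -0.24 without stallion 1 and -0.75 without stallion 2. Without overlap were 2 receptor genes higher (0.299%, against 0.249% of all probe sets) and 1 lower in low fertility (0.15%, against 0.105%).

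**Figure D5:**
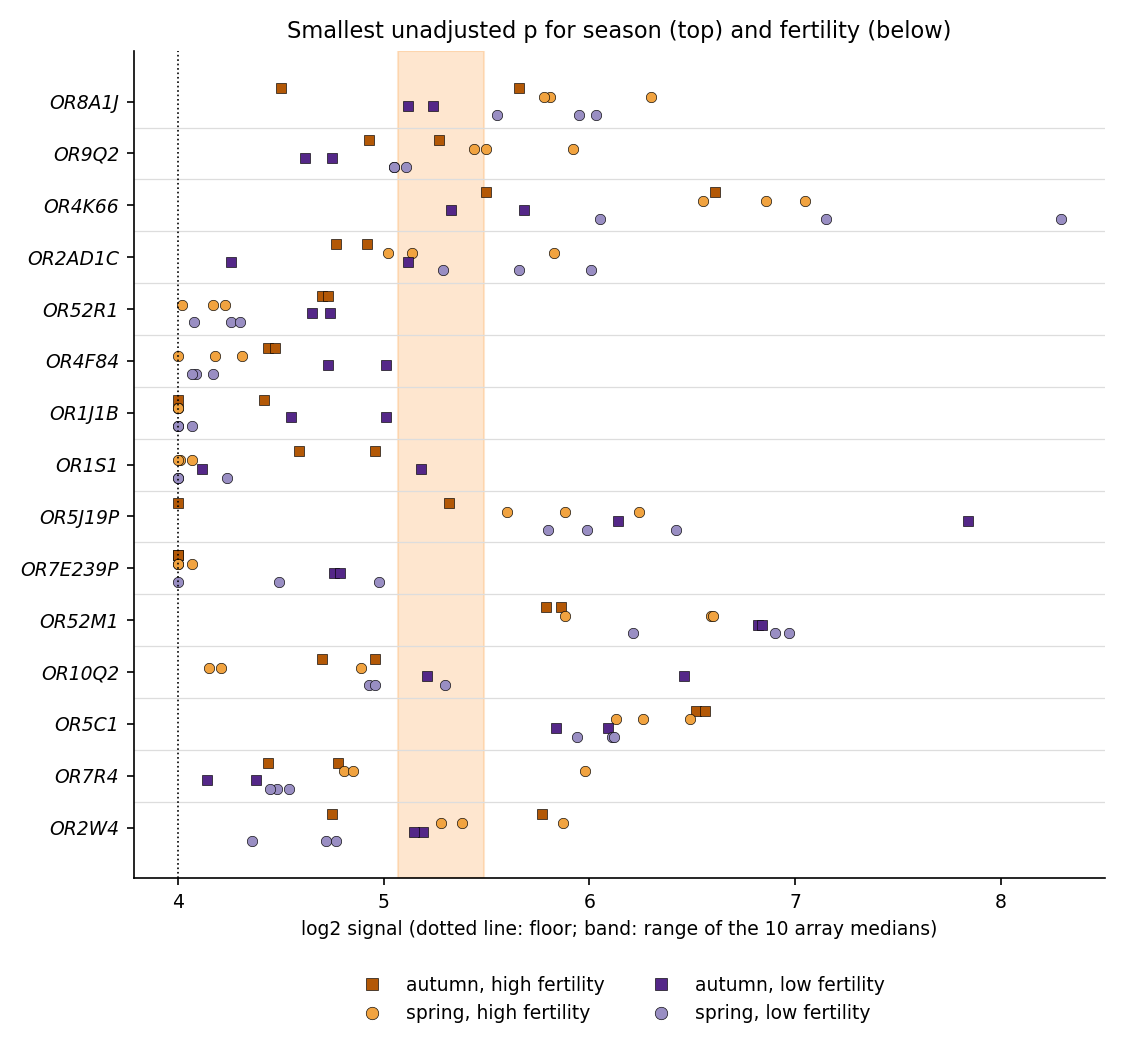
Log2 signal on each of 10 arrays (x axis) for 15 receptor genes (y axis), with squares for autumn, circles for spring and a colour for each group. They are the 4 of smallest unadjusted p in each direction for season and for fertility class, with OR9Q2 in both sets. The band spans the array medians and the dotted line is the floor of 4. None passed the adjusted threshold. OR52R1 separates the seasons between 4.30 and 4.65, and OR5C1 the fertility classes between 6.12 and 6.13.

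The interaction asks whether spring and autumn differ by another amount in low than in high fertility, and is positive where the rise to spring is larger in low fertility. It passed for 0 of 668 receptor genes (all adjusted p = 1), against 0.00327% of all probe sets. At an unadjusted p under 0.05, 2 genes were positive (0.299%, against 1.49%) and 14 negative (2.10%, against 2.30%). The receptor median was -0.13 and that of all probe sets -0.07. Without stallion 5 it was 0.16, and without stallion 2 it was 0.03. All 11 sperm marker genes had negative interactions, with a median of -1.12, and their part in the receptor values was not tested.

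OR12D2K had the smallest p. It read 4.43 and 4.19 in autumn and 5.75, 4.43 and 5.37 in spring for high-fertility stallions, and 6.21 and 5.45 in autumn and 4.43, 4.77 and 4.76 in spring for low-fertility stallions. Spring was thus higher by 0.87 in high and lower in low fertility, at -1.18, an interaction of -2.05 (SE 0.55). OR52A28, OR52H18 and OR6B6 had interactions of -1.33 (SE 0.40), -1.34 (SE 0.43) and -1.06 (SE 0.36). Their highest low-fertility value was that of stallion 5 in each case, at 5.60, 5.68 and 5.50.

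OR10AC1 went the other way. It read 6.25 and 5.77 in autumn and 4.52, 5.10 and 4.62 in spring for high-fertility stallions, and 5.10 and 5.08 in autumn and 6.14, 5.99 and 4.95 in spring for low-fertility stallions. The interaction was 1.87 (SE 0.52). In high fertility the seasons did not overlap, and in low fertility they did, through stallion 10. OR2R6P had an interaction of 0.95 (SE 0.36), OR8S25 of 0.97 (SE 0.45) and OR10K2 of 0.96 (SE 0.45). With stallion 9 placed in autumn these were 0.60, 0.58 and 0.39, and that of OR52A28 was -0.88. Without stallion 6 that of OR10K2 was 0.61.

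The partners of the receptors were read from lists, and none of their genes passed for season, fertility class or the interaction (all adjusted p = 1). Of 20 olfactory signal transduction genes 17 were measured, with means of 4.73 to 6.94. The highest were SLC24A4, a sodium, potassium and calcium exchanger gene, at 6.94 ± 0.28 (SD, n = 10), PDE4A, a cAMP phosphodiesterase gene, at 6.91 ± 0.77, and SLC8A1, a sodium and calcium exchanger gene, at 6.28 ± 0.61. Of the first steps of the pathway, GNB1 averaged 5.66 ± 0.28, GNAL 5.36 ± 0.67 and ADCY3 4.94 ± 0.30. The channel gene CNGA2, which acts later, was the lowest of the 17 at 4.73 ± 0.27. Above every array median were 3 of the 17. For season 7 were higher and 10 lower in spring (median -0.18), and for fertility class 12 were higher and 5 lower in low fertility (median 0.12).

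Of 14 genes for the export of receptors to the cell surface 12 were measured, and 7 were above every array median. REEP5 averaged 9.86 ± 0.28, CALR, which encodes the chaperone calreticulin, 7.41 ± 0.78, and REEP1 7.41 ± 0.62. RTP1 and RTP2, transporters that carry olfactory receptors to the membrane, averaged 6.60 ± 0.27 and 6.44 ± 0.36. For season 2 were higher and 10 lower in spring (median -0.13), and for fertility class 8 were higher and 4 lower in low fertility (median 0.20).

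Of 17 genes for cAMP and calcium signalling in sperm 15 were measured, and 6 were above every array median. The highest were CATSPERG, a subunit of the sperm calcium channel, at 8.11 ± 0.66, PLCZ1, the sperm phospholipase that activates the egg, at 6.97 ± 1.21, and CATSPERB at 6.51 ± 0.99. ADCY10, the soluble adenylyl cyclase of sperm, averaged 5.11 ± 0.30. For season 8 were higher and 7 lower in spring (median 0.01), and for fertility class 7 were higher and 8 lower in low fertility (median -0.04).

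Other chemosensory receptors gave 12 measured genes of the taste, trace amine and vomeronasal families. Their means had a median of 4.81, and 2 were under 4.5, TAS2R9 and TAS2R8, the latter at 4.41. The bitter taste receptor gene TAS2R1 stood above every array median, at 7.08 ± 0.67, followed by TAS1R3 at 5.56 ± 0.36 and TAS1R1 at 5.29 ± 0.35. For season 7 were higher and 5 lower in spring (median 0.01), and for fertility class 6 were higher and 6 lower (median 0.03).

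No gene of the lists for other cells passed in any comparison either (all adjusted p = 1). In low fertility 4 of the 10 olfactory neuron genes were higher and 6 lower (median -0.09), 3 of the 10 leukocyte genes were higher and 7 lower (median -0.13), and 0 of the 5 genes of epithelium and accessory glands were higher and 5 lower (median -0.31). In spring 5 olfactory neuron genes were higher and 5 lower (median -0.01), 4 leukocyte genes higher and 6 lower (median -0.03), and 3 epithelial genes higher and 2 lower (median 0.31).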

How the data were processed

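The authors deposited a log2 signal for every probe set. Per the submitters' processing notes GCOS 1.1.1 and Affymetrix Expression Console 1.1 were used, with background, summarisation and scaling not given in the sources used here. Signals stop at a floor of 4. The platform annotation gave 1 symbol to 16789 probe sets, several to 343 and none to 13427. Each gene was read from its probe set of highest mean. One linear model with 4 group means covered all 10 arrays and 30559 probe sets, by limma 3.58.1 in R 4.3.3. It used eBayes moderation, two-sided tests and Benjamini-Hochberg adjustment. The fit was tested on simulated data, with changes added only to probe sets whose mean was above the highest array median. Most receptor genes were below that level, so the simulation does not cover them. Near the floor means a mean under 4.5. The genes described were those above all medians (15 highest), the 5 lowest, the 5 of largest SD, 4 per direction of smallest p in each comparison, and fixed candidates. Members and lists were chosen with earlier results of these data known. Groups hold 2 or 3 animals, and the number of arrays limits precision. No 2 arrays were alike in more than 4.99% of values.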

Additional observations from a re-analysis of the deposited data

How the results depend on the processing

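The count of receptor genes near the floor depended on the limit chosen: 256 had means under 4.5, 73 under a limit midway between the floor and 4.5, and 512 under 5. Of the 31 genes above every array median 7 were above by at least 1 log2 unit, and 90 genes had means above the mean of the array medians. Leaving out single stallions gave 238 to 287 and 31 to 34. No receptor gene passed under any alternative except without stallion 6, where stallion 5 is the lone autumn low-fertility array and is assumed to vary like the rest. There OR3A2D (season -1.72, interaction -3.39) and OR7H9 (-1.58 and -3.44) passed with adjusted p of 0.0213 to 0.0365, where 18 and 15 of all 30559 probe sets passed (13 for fertility class, none a receptor gene). So leaving out single stallions gave 0 to 2 calls for season, 0 to 2 for the interaction and 0 for fertility class. All 24 named differences kept their direction in 388 alternative values. They were chosen by small p from these same arrays, so this is no independent support for them. The median over the receptor genes did not keep its direction. For season (-0.06) it ran from -0.184 to 0.077 without single stallions and was 0.006 with median centring and 0.005 with stallion 9 in autumn. For fertility class (0.12) it ran from -0.036 to 0.252, and for the interaction (-0.13) from -0.343 to 0.155, with 0.085 without stallions 2, 9 and 10. Counts at an unadjusted p under 0.05 were highest without stallion 6: 74 for season (22 in the full fit; 11.1% of the genes, against 4.85% of all probe sets), 86 for fertility class (17; 12.9% against 4.3%) and 67 for the interaction (16; 10% against 3.69%). With genes of means under 5 left out, fewer genes were tested and 7, 8 and 7 were counted (4.49%, 5.13% and 4.49%, against 3.9%, 2.08% and 3.65%). The effect of single stallions stands beside the values of some named genes only. Without single stallions the season difference of OR4K66 ran from 0.93 to 1.49. The interaction ran from -2.43 to -1.67 for OR12D2K, -1.77 to -0.92 for OR52H18, -1.34 to -0.79 for OR6B6 and 1.63 to 2.24 for OR10AC1. The cause of these shifts was not tested.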

Other observations

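The 49 probe sets that carry several symbols, at least 1 of them an olfactory receptor, had signals close to those of the 668 receptor genes, whose median was 4.63. Their means had a median of 4.61 and ran from 4.07 to 8.34. Of the 49, 21 had means under 4.5 (42.9%), and 1 stood above the median of every array, by at least 1 log2 unit. Across receptor genes, pairs of arrays correlated with r between 0.558 and 0.843 (45 pairs, 668 genes that are not independent), and across all probe sets between 0.791 and 0.918.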
